A study of Mus musculus with 2 samples.

Results

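The cells described here are the dividing dendritic cells (DCs) of the mouse spleen that are not conventional type 1 DCs (cDC1s), a population made up largely of cDC2s. They were chosen cell by cell from their unique molecular identifier (UMI) counts, each UMI standing for 1 captured mRNA molecule. A cell was taken when it held at least 6 UMIs of Top2a and Mki67 together, fewer than 5 UMIs of the cDC1 genes Cadm1, Naaa, Xcr1 and Clec9a together (hereafter the cDC1 gate), fewer than 3 UMIs of C1qb, no UMI of Cd3e, fewer than 3 UMIs of Cd79a, and at least 5 UMIs of Flt3 and H2-Aa together. The rule found 322 of the 6393 cells in the data, 155 in replicate 1 and 167 in replicate 2, and these are called cycling DCs below. They were set against 2047 non-cycling DCs, 1096 and 951 in the 2 replicates, which met the same rule except that they held no UMI of Top2a or Mki67. A further 673 cells with 1 to 5 UMIs of the gene pair belong to neither group.

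Both samples were spleen cells of mice labelled Wild-Type, enriched for CD11c+ cells with magnetic beads, tagged by sample and captured in the same BD Rhapsody run. There is only 1 condition. No allele or treatment is named. The study's methods give adult mice on the C57BL/6J background for all experiments, while neither they nor the labels give the number of mice behind each sample. Nothing states that the samples came from separate animals, so the p-values below measure only the spread between these 2 samples. The tables held 46953398 and 43137746 UMIs over 3308 and 3085 cells, and no cell barcode was shared between them. In the following text, paired values are those of replicates 1 and 2, in that order.

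DCs are short-lived antigen-presenting cells that are replaced from bone marrow precursors entering the spleen, and a fraction of the resident cells also divides in place under the growth factor FLT3 ligand, which signals through FLT3. Before a cell divides it copies its DNA in S phase, using the MCM helicase, PCNA and enzymes that make deoxynucleotides. It then assembles the mitotic spindle in G2 and M phases under cyclins A and B and CDK1. Genes of S phase are released by E2F transcription factors once cyclin D or cyclin E kinases inactivate the RB family, and many genes of G2 and M phases carry CHR and CCAAT elements bound by the MuvB complex with B-MYB and FOXM1 and by NF-Y.

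Top2a, the topoisomerase that untangles replicated chromosomes, and Mki67, which coats mitotic chromosomes, chose the cells and are described without a test. Top2a stood at 1823 and 2103 CPM, the UMIs of a gene per 1000000 UMIs of the group, summed over the cycling DCs. Mki67 stood at 1615 and 1922 CPM. Both are at 0 in the non-cycling DCs by construction. At least 1 Top2a UMI was present in 87.1% and 90.4% of the cycling cells and a Mki67 UMI in 96.8% and 99.4%. In T cells of the same samples (at least 3 UMIs of Cd3e), a Mki67 UMI was found in 2.27% and 12.9%.

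The remaining gate genes are described in the same way. Flt3, the receptor for the DC growth factor, was at 365 and 364 CPM in cycling DCs against 496 and 536 CPM in non-cycling DCs. A Flt3 UMI was present in 147 of 155 cycling cells, or 94.8% (95% exact Clopper-Pearson interval 90.1 to 97.7), and in 154 of 167, or 92.2% (87.1 to 95.8). The share was 20.5% and 16.3% among T cells, whose median depth was 6041 and 6645 UMIs against 15290 and 14609 in cycling DCs. Intervals here and below cover counting error only. H2-Aa, an MHC class II alpha chain, was at 7841 and 8428 CPM against 11313 and 12108 CPM.

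The genes the rule kept low were low. Xcr1, the chemokine receptor that defines cDC1s, was at 8.36 and 4.44 CPM in cycling DCs, against 903 and 808 CPM in the cycling cells inside the cDC1 gate. Clec9a, a receptor for dead cells, was at 11.4 and 11.8 CPM against 802 and 684 CPM. Cadm1, an adhesion molecule, was at 10.3 and 2.22 CPM against 681 and 693 CPM. Naaa, a lysosomal amidase, was at 31.2 and 37.0 CPM against 1074 and 1109 CPM. C1qb, a complement chain of macrophages, was at 1.90 and 3.70 CPM, and Cd79a, a B cell receptor chain, at 3.04 and 0 CPM. Cd3e was at 0. A cut of 5 UMIs admits a larger share of the cDC1 genes in the shallower non-cycling DCs, and its part was not tested. In the Clec4a4 subset defined below, Clec9a was at 9.06 and 8.25 CPM in cycling against 17.4 and 18.9 CPM in non-cycling cells. Cadm1 was at 6.47 and 3.75 CPM against 11.2 and 14.3 CPM there. Xcr1, at 6.47 and 3.75 against 5.89 and 4.89 CPM, and Naaa, at 31.7 and 42.0 against 32.7 and 26.2 CPM, overlapped.

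Genes that the rule did not use give the depth of the division program in these cells, although they travel with Top2a and Mki67 in the same cells and are therefore described and not counted as support. To compare cells of unequal depth, each cell was thinned to 5000 UMIs, and shallower cells were left out. The median cycling cell then held 24.5 and 25.5 UMIs of 44 S phase genes, against 4 and 3 in the median non-cycling cell. Of 52 G2 and M phase genes it held 61 and 65 UMIs, against 7 and 7. Summed over cells, the S phase genes made up 6293 and 6064 CPM in cycling DCs and 951 and 890 CPM in non-cycling DCs. The G2 and M phase genes made up 13889 and 15535 CPM against 1522 and 1472 CPM.

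The edge of the rule was less sharp than its centre. Of the 191 cells with 24 or more UMIs of Top2a and Mki67, all 187 deep enough to be thinned held more UMIs of both lists together than the 95th percentile of non-cycling cells (24 and 22 UMIs). Of the 49 cells with 12 to 23 UMIs, 97.8% of those thinned did. Of the 82 cells with 6 to 11 UMIs, 44.9% did, and the replicates differed there, at 25.7% and 60.5%. Just inside the threshold, the 50 cells with 6 or 7 UMIs had 29.8% above that level, and just outside it the 107 cells with 4 or 5 UMIs had 26.0%. The cells with 6 to 11 UMIs held on average 2.39 Top2a and 5.01 Mki67 UMIs. Over all cycling cells, 266 of 310 thinned cells, or 85.8%, lay above that level. A stricter threshold of 12 UMIs was therefore run as an alternative.

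**Figure D1:**
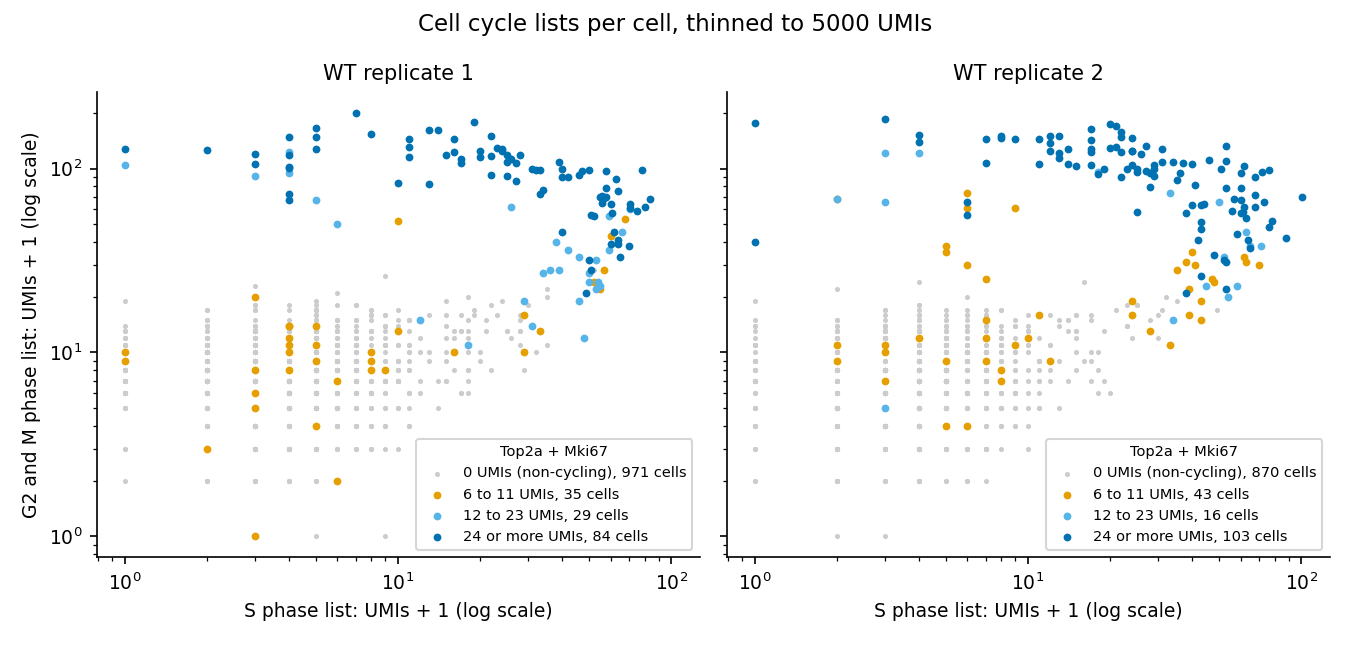
UMIs of the S phase genes (x axis, UMIs plus 1, log scale) and of the G2 and M phase genes (y axis, UMIs plus 1, log scale) in each DC outside the cDC1 gate, thinned to 5000 UMIs, with 1 panel per replicate and colours for the UMIs of Top2a and Mki67 before thinning. Cells with 24 or more UMIs of the gene pair lie high on the y axis over a broad range of S phase UMIs, whereas many cells with 6 to 11 UMIs lie within the cloud of cells with 0.

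The cycling cells spanned the cycle. Among the 113 and 119 thinned cells with 12 or more UMIs of the gene pair, S phase genes made up a median of 30.6% and 23.7% of the UMIs of both lists. The range from the 10th to the 90th percentile was 2.89% to 64.5% in replicate 1 and 5.13% to 62.3% in replicate 2. S phase UMIs outnumbered those of G2 and M phases in 35 and 27 of these cells, and in 47 and 52 cells they made up less than 20%. Top2a and Mki67, which chose the cells, themselves accumulate from S phase towards mitosis, so no share of cells in a phase is read from these counts.

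Windows of 300 bases from the promoters of cycle genes are printed here because these genes moved together, and the windows show which known elements their starts carry. They run from 250 bases before the annotated start to 50 bases after it, read 5′ to 3′ on the strand of the gene, and come from RefSeq on GRCm38.p6. Capitals mark matches to the CHR element (TTTGAA or TTCGAA), the CCAAT box, or an E2F site (TTGGCGC or its variants TTCGCGC, then TTCCCGC, then TTGCCGC) on either strand. The S phase genes Rrm2 (chr12:24708004-24708303, plus strand) and Clspn (chr4:126556730-126557029, plus strand) are followed by the G2 and M phase genes Hmmr (chr11:40733388-40733687, minus strand) and Ube2c (chr2:164769679-164769978, plus strand).
Rrm2: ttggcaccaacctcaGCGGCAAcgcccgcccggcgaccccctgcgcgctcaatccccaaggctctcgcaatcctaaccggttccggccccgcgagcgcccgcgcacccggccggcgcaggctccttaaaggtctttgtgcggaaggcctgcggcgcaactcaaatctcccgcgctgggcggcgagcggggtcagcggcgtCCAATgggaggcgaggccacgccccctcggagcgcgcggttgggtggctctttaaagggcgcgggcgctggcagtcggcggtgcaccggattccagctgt
Clspn: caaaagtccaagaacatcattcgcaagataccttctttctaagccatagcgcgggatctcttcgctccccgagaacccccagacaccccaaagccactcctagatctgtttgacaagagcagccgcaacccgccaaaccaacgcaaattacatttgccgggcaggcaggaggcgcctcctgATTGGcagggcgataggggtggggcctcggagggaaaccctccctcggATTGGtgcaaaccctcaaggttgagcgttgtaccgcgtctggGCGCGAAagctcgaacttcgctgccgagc
Hmmr: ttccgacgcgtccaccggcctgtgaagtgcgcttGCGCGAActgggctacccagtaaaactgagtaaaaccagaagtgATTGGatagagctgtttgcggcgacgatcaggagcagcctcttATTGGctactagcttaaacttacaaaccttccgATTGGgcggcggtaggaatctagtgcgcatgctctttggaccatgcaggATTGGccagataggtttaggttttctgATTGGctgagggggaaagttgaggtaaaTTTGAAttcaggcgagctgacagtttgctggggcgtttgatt
Ube2c: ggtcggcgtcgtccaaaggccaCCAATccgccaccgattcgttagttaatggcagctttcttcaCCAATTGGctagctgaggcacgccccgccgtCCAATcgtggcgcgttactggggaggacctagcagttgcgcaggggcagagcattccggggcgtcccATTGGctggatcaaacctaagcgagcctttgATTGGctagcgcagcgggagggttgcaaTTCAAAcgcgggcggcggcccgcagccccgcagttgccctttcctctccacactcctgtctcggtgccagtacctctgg
Rrm2 and Clspn each carried an E2F match and at least 1 CCAAT match but no CHR match. Hmmr and Ube2c carried a CHR match near the start with 5 and 6 CCAAT matches, 2 of which overlap in Ube2c. Hmmr carried an E2F match as well. The window of Birc5 (chr11:117848987-117849286, plus strand) held none of these letters, and that of Cdc6 (chr11:98907901-98908200, plus strand) held 1 E2F match.

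Across the lists, an E2F match stood in 72.2% of 36 windows of S phase genes (32 of the 44 genes matched), against 21.6% of 51 windows of G2 and M phase genes (46 of 52 genes) and 9.57% of all 32851 windows. A CHR match stood in 72.5% of the G2 and M phase windows, 19.4% of the S phase windows and 19.2% of all windows. CCAAT stood in 69.4% and 74.5% of the S phase and the G2 and M phase windows, against 37.4% of all. In 11 windows of MHC class II presentation genes the shares were 9.09% for CHR, 63.6% for CCAAT and 9.09% for E2F. In 12 windows of cDC2 marker genes they were 16.7%, 25% and 25%. A match is a description of letters and not a measured binding site.

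For the comparison of cycling with non-cycling DCs, UMIs were summed per sample and cell group and tested with edgeR's quasi-likelihood test with Benjamini-Hochberg adjustment, and the 11 genes of the rule were left out. Of 12487 genes tested, 4147 (33.2%) differed at the threshold of 0.05, 1882 higher (15.1%) and 2265 lower (18.1%) in the cycling DCs, with a median log2 difference over all genes of -0.10. These shares are the background for every count below. The balance of directions depended on the scaling, since 45.4% of the called genes were higher with all genes in the TMM factors and 56.7% with the cycle genes left out of them. In sums of this kind, fewer cells of a type and less RNA per cell cannot be told apart. Cycling DCs were also deeper than non-cycling DCs, with medians of 15290 and 14609 UMIs per cell against 9522 and 9651, and of 3973 and 3877 genes against 2905 and 2906.

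The fit was repeated on cells within a shared window of depth (7131 to 27833 UMIs in replicate 1 and 8043 to 25957 in replicate 2), where 2834 of 11551 genes (24.5%) were called, 14.6% higher and 9.95% lower. It was also repeated within cells of the Clec4a4 subset defined below, where 2498 of 9881 genes (25.3%) were called, 15.1% higher and 10.2% lower.

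All 44 S phase genes were higher in the cycling DCs, with a median log2 difference of 2.96. Pcna, the sliding clamp of DNA polymerase, was the most abundant, at 542 and 541 CPM against 102 and 98.6 CPM (log2 difference 2.38 ± 0.07 SE). Rrm2, the regulatory subunit of ribonucleotide reductase, was at 397 and 433 CPM against 1.57 and 0.739 CPM. Atad2, a chromatin ATPase, was at 400 and 349 CPM against 42.8 and 37.9 CPM. Pcna and Atad2 thus had a level in the non-cycling cells from which they were higher by a modest factor, while Rrm2 was nearly absent there (8.38 ± 0.17). Clspn, a checkpoint mediator at the fork, was at 132 and 136 CPM against 2.40 and 2.01 CPM. Cdc6, which loads the replicative helicase, was at 69.2 and 67.6 CPM against 1.20 and 1.06 CPM.

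All 52 G2 and M phase genes were higher as well, with a median log2 difference of 5.68. Hmgb2, a chromatin protein, was at 2467 and 2853 CPM against 257 and 252 CPM (3.33 ± 0.07). Smc4, a condensin subunit, was at 984 and 1163 CPM against 199 and 171 CPM. Tmpo, a protein of the nuclear lamina, was at 1008 and 1037 CPM against 295 and 283 CPM. The genes of the list with the largest folds were near absent from non-cycling cells. Birc5, the survivin subunit of the chromosomal passenger complex, was at 383 and 459 CPM against 1.02 and 0.845 CPM (8.73 ± 0.26). Hmmr, a spindle protein, was at 179 and 203 CPM against 1.20 and 0.211 CPM. Ube2c, the ubiquitin-conjugating enzyme of the anaphase-promoting complex, was at 419 and 531 CPM against 1.85 and 1.90 CPM.

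The same division shows cell by cell. A Cdk1 UMI was present in 63.2% and 62.3% of cycling cells and in 1.46% and 2.10% of non-cycling cells. For Rrm2 the shares were 62.6% and 68.3% against 1.09% and 0.736%. For Pclaf, a partner of PCNA, they were 76.1% and 83.2% against 1.92% and 1.89%.

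Of 22 cyclins, cyclin-dependent kinases and cell cycle transcription factors tested, 14 were higher and 2 lower. Ccna2, the S and G2 phase cyclin A2, was at 378 and 447 CPM against 1.66 and 1.69 CPM (7.88 ± 0.19). E2f7, an E2F family repressor, was at 79.1 and 89.4 CPM against 1.66 and 0.9504 CPM. Foxm1, the mitotic transcription factor, was at 56.3 and 70.2 CPM against 1.29 and 0.845 CPM. The other 6 did not pass the test. The D cyclins, which couple growth factor signals to the start of the cycle, were not among the genes that were higher. Ccnd1, the most abundant gene of the list, was at 1112 and 1071 CPM in cycling DCs against 1284 and 1246 CPM in non-cycling DCs. The difference of -0.26 ± 0.08 (edgeR, adjusted p = 0.025) was not called with the cycle genes left out of the scaling (adjusted p = 0.13) or within the depth window (-0.17, adjusted p = 0.39). The level of Ccnd1 also differed between the subsets defined below. In the Clec4a4 subset it was at 1224 and 1128 CPM in cycling against 1654 and 1610 CPM in non-cycling cells. In the Cd209a subset it was at 562 and 776 CPM against 859 and 897 CPM. In mature cells it was at 1639 and 1393 CPM against 1472 and 1409 CPM, with groups that overlapped. Ccnd2 was at 63.9 and 50.6 CPM against 154 and 152 CPM (-1.47 ± 0.20). Ccnd3 was at 287 and 272 CPM against 275 and 287 CPM, with groups that overlapped.

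**Figure D2:**
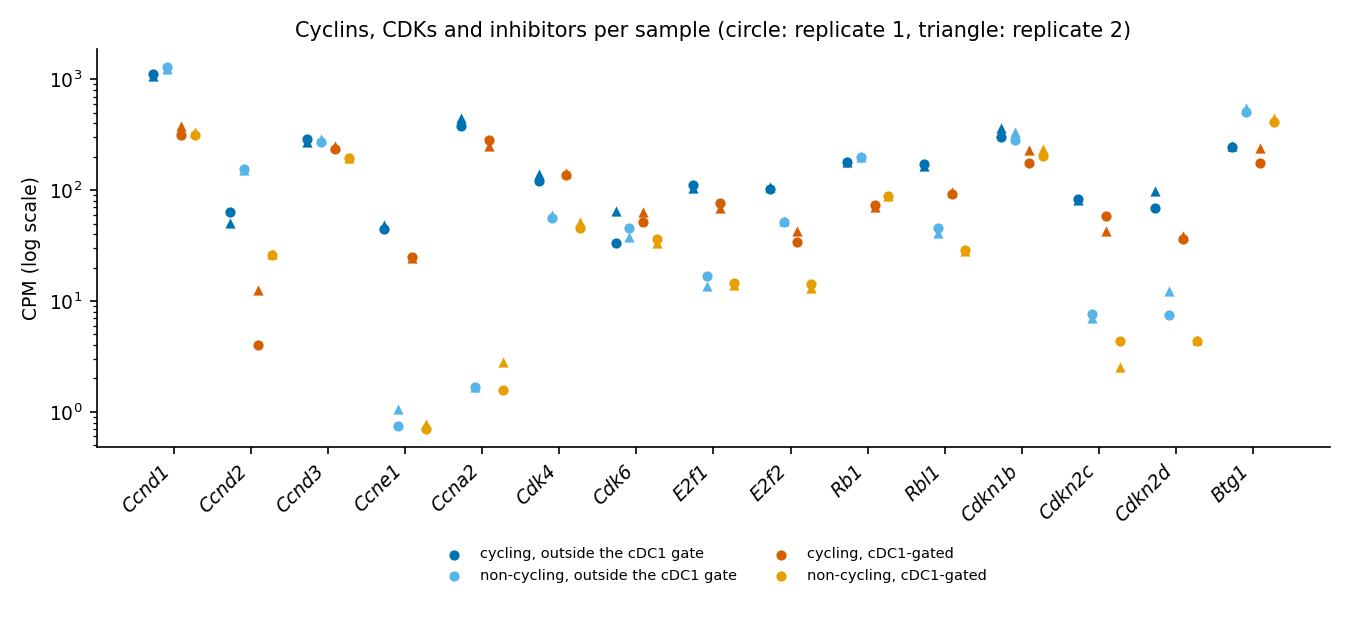
Level in CPM (log axis) of 15 cyclins, kinases, E2F and RB family genes and inhibitors in the summed cells of 4 groups, cycling and non-cycling DCs outside and inside the cDC1 gate, with a circle for replicate 1 and a triangle for replicate 2. Ccna2 and Ccne1 are higher in both cycling groups by more than an order of magnitude, whereas Ccnd1 separates the cells outside the gate (1071 to 1284 CPM) from those inside it (313 to 383 CPM).

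Counted per cell, Ccnd1 was not scarcer in the deeper cycling cells, which held a mean of 18.9 and 17.3 UMIs against 12.7 and 12.4 in non-cycling cells. Every CPM comparison here is of a share of the mRNA, and a gene can take a smaller share of a larger pool.

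The inhibitors and quiescence genes did not move as a group, with 3 of 15 higher and 7 lower. Cdkn2c and Cdkn2d, inhibitors of CDK4 and CDK6, were among the genes that were higher. Cdkn2c was at 83.3 and 81.7 CPM against 7.58 and 7.08 CPM (3.44 ± 0.20), and Cdkn2d at 68.4 and 99.1 CPM against 7.49 and 12.4 CPM (3.04 ± 0.23). The antiproliferative Btg1 was at 246 and 248 CPM against 506 and 556 CPM (-1.16 ± 0.12). Tob1, of the same family, was at 21.3 and 20.7 CPM against 44.4 and 48.4 CPM (-1.19 ± 0.18). Btg2 was at 301 and 440 CPM against 540 and 706 CPM (-0.80 ± 0.23, edgeR, adjusted p = 0.020), a call that was lost with DESeq2, which called 24.6% of all genes (adjusted p = 0.12) and within the depth window (adjusted p = 0.084). Cdkn1b, which encodes p27, was at 303 and 366 CPM against 285 and 337 CPM, a difference of 0.06 ± 0.14 that did not pass the test.

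Of 16 genes of nucleotide synthesis, 14 were higher and none passed the test as lower. Tk1, thymidine kinase, was at 132 and 142 CPM against 6.84 and 6.23 CPM (4.34 ± 0.14). The enzymes with a basal level in resting cells were higher by less. Paics, of purine synthesis, was at 240 and 242 CPM against 107 and 113 CPM, and Mthfd2, of mitochondrial folate metabolism, at 132 and 137 CPM against 83.5 and 85.8 CPM.

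Of 15 genes of growth and nutrient uptake, 9 were higher and 2 lower. Npm1, a nucleolar chaperone, was at 800 and 863 CPM against 654 and 677 CPM (0.27 ± 0.06, edgeR, adjusted p = 0.0052), and this call was lost once cells with markers of other lineages were left out (adjusted p = 0.068). Ncl, nucleolin, was at 675 and 724 CPM against 425 and 416 CPM (0.68 ± 0.07). Nop56, of the small nucleolar ribonucleoproteins, was at 244 and 218 CPM against 118 and 107 CPM (0.99 ± 0.10). The glucose transporter Slc2a3 was lower, at 77.6 and 82.4 CPM against 115 and 117 CPM (-0.59 ± 0.13).

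All 15 genes of chromatin proteins and tubulins were higher. Tubb5, a beta tubulin, was at 1603 and 1861 CPM against 233 and 265 CPM (2.75 ± 0.10). Tuba1b, an alpha tubulin, was at 1499 and 1681 CPM against 132 and 124 CPM (3.58 ± 0.08). Stmn1, which destabilises microtubules, was at 1063 and 1172 CPM against 16.4 and 28.2 CPM (5.61 ± 0.20). Hmgb3, a chromatin protein, was at 16.7 and 29.2 CPM against 1.02 and 0.739 CPM. Tuba1b, Hmgb2 and Npm1 have near-identical gene copies, and the sources used here do not give how reads shared between copies were counted.

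Among genes in none of the lists, Pbk, a mitotic kinase, held 230 and 280 UMIs in cycling DCs and 0 and 1 in non-cycling DCs, a ratio of 1939 whose counting interval runs from 346 to 76723. Pclaf was at 915 and 934 CPM against 3.79 and 2.11 CPM (8.21 ± 0.15). Spc24, of the kinetochore, was at 206 and 247 CPM against 1.48 and 0.528 CPM, and Prc1, of the central spindle, at 317 and 387 CPM against 2.50 and 1.90 CPM. Esco2, Mxd3, Iqgap3, Kif20a, Neil3 and Kif14, the other genes with the largest higher values by the naming rule, had log2 differences of 7.96, 7.72, 7.57, 7.55, 7.46 and 7.32. Most of these genes also belong to replication or mitosis.

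Cycling cells were unevenly spread over the DC subsets. Of all gated DCs outside the cDC1 gate, 9.60% (8.20 to 11.1, 155 of 1615) and 11.7% (10.1 to 13.5, 167 of 1427) were cycling, a mean of 10.7% ± 1.49 (SD, n = 2). Subsets were set by UMIs in sequence, first mature cells with at least 3 UMIs of Ccr7 and Fscn1, then cells with at least 3 of Siglech and Ccr9, and then cells with at least 3 of Clec4a4 and Dtx1 that exceeded Cd209a, Mgl2 and Clec10a. Cells with at least 3 UMIs of Cd209a, Mgl2 and Clec10a followed, and the rest fell short of each of these thresholds. Clec4a4 encodes the lectin recognised by the DCIR2 antibody and marks, with the Notch target Dtx1, the cDC2s of the bridging channel, whereas Cd209a and Clec10a mark a cDC2 group nearer to monocytes in its gene expression.

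In the Clec4a4 subset, 13.5% (10.9 to 16.5, 80 of 592) and 17.2% (13.9 to 20.9, 80 of 465) of cells were cycling. In the Cd209a subset, 5.32% (3.23 to 8.19, 19 of 357) and 4.62% (2.55 to 7.63, 14 of 303) were. The intervals of these subsets did not overlap in either replicate. Mature cells stood between them, at 7.46% (4.62 to 11.3, 20 of 268) and 7.37% (4.73 to 10.9, 23 of 312). Cells with Siglech or Ccr9 were too few to read, with 0 of 37 in replicate 1 (upper limit 9.49%) and 5 of 33 in replicate 2, or 15.2% (5.11 to 31.9). Cells of the rest were cycling in 9.97% (36 of 361) and 14.3% (45 of 314). For comparison, 11.99% (10.1 to 14.1) and 14.2% (11.98 to 16.6) of the cDC1-gated DCs were cycling. With 2 samples no exact permutation test can reach 0.05, so these shares are descriptions.

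Depth bears on these shares because a deeper cell passes 6 UMIs more easily. With each cell thinned to 5000 UMIs and a threshold of 3 UMIs, the Clec4a4 subset held 10.4% (7.49 to 14.05) and 14.2% (10.5 to 18.6) cycling cells and the Cd209a subset 4.56% (2.38 to 7.83) and 3.04% (1.23 to 6.17). The intervals then overlapped in replicate 1 and not in replicate 2. The rest, which thinning enlarges with cells that lose their subset UMIs, held 13.2% and 17.9%, above the Clec4a4 subset and not below it as without thinning. Mature cells held 5.99% and 5.91%.

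**Figure D3:**
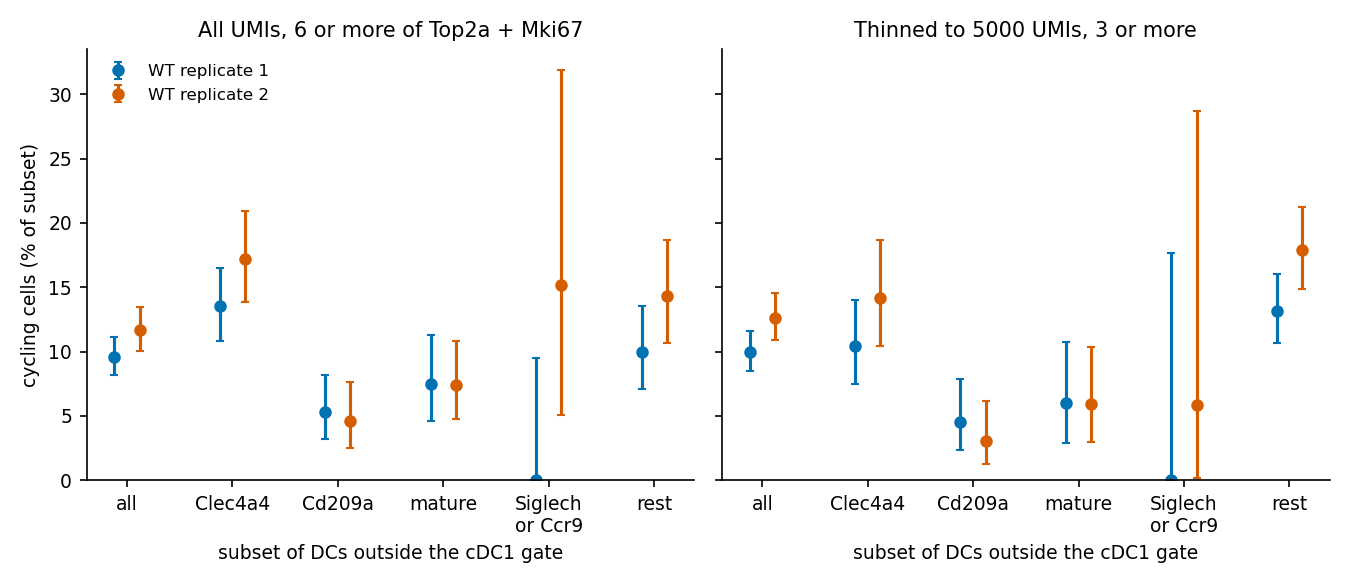
Share of cycling cells (y axis, %) in all gated DCs outside the cDC1 gate and in each of their subsets, by replicate. Bars are 95% exact Clopper-Pearson intervals. The left panel has all UMIs with a threshold of 6 UMIs of Top2a and Mki67, and the right panel cells thinned to 5000 UMIs with a threshold of 3. The Clec4a4 subset lies above the Cd209a subset in both replicates and in both panels, at 13.5% and 17.2% against 5.32% and 4.62% on the left.

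Seen from the cycling cells, 51.6% (43.5 to 59.7) and 47.9% (40.1 to 55.8) belonged to the Clec4a4 subset, against 31.8% and 28.2% of non-cycling cells. The Cd209a subset made up 12.3% and 8.38% of cycling cells and 23.4% and 24% of non-cycling cells. Mature cells made up 12.9% and 13.8% against 17.8% and 23.3%, and the rest 23.2% and 26.9% against 24.3% and 22.1%. The remaining cycling cells, 0 and 2.99%, were those with Siglech or Ccr9. Most of the cycling DCs thus met the rule of either cDC2 subset, while the cells of the rest held too few UMIs of the subset genes to be placed.

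Most cDC2 markers were level or lower in the sums over all cycling DCs. Of 17 tested, 1 was higher and 7 lower in cycling DCs, with a median log2 difference of -0.26. Cd209a, the DC-SIGN homologue that named the second subset, was at 107 and 75.4 CPM against 319 and 331 CPM (-1.89 ± 0.22, edgeR, adjusted p = 6.8e-05). Within the Cd209a subset, which this gene helped to choose and whose cycling cells were deeper (medians of 17917 and 17900.5 UMIs against 9725.5 and 10364), it was at 476 and 473 CPM in cycling cells and 1033 and 1042 CPM in non-cycling cells. Mgl2, a lectin of the same cells, held 0 and 2 UMIs in cycling DCs and 181 and 240 in non-cycling DCs, a ratio of 0.0181 (counting interval 0.00218 to 0.0656). Clec10a, its close relative, held 5 and 0 UMIs against 183 and 168.

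Clec4a4 and Dtx1, the genes that set the Clec4a4 subset, did not differ beyond the spread in the sums over all cycling DCs. Clec4a4 was at 138 and 102 CPM against 116 and 108 CPM (0.04 ± 0.20, edgeR, adjusted p = 0.90). Dtx1 was at 268 and 278 CPM against 254 and 222 CPM (0.15 ± 0.28). Both genes chose the cells of the Clec4a4 subset, and there both were lower in level in the cycling cells. Clec4a4 was at 166 and 128 CPM against 190 and 211 CPM and Dtx1 at 390 and 433 CPM against 536 and 527 CPM. The cycling cells of this subset were deeper, with medians of 18379.5 and 15902.5 UMIs against 10609 and 10147.5. Deeper cells pass the fixed cut of 3 UMIs with a lower share of its genes. Klf4, a transcription factor of cDC2s, was at 237 and 233 CPM against 247 and 268 CPM (-0.18 ± 0.18). Sirpa, the surface marker used to gate cDC2s, was at 219 and 228 CPM against 313 and 300 CPM (-0.51 ± 0.22, edgeR, adjusted p = 0.096) and passed the threshold in 5 alternatives, among them the Clec4a4 subset alone (-0.52, adjusted p = 0.0010).

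Adam23, a membrane protein of the metalloprotease family and the most abundant gene of this list, was at 554 and 510 CPM against 1000 and 960 CPM (-0.93 ± 0.07, edgeR, adjusted p = 1.4e-06). Tbx21, which encodes T-bet and has been used to divide splenic cDC2s, was the only marker of the list that was higher, at 34.2 and 41.8 CPM against 16.1 and 21.97 CPM (0.95 ± 0.24, edgeR, adjusted p = 0.011). Its higher level held in both cDC2 subsets, at 38.8 and 50.2 CPM against 21.4 and 34.9 CPM in the Clec4a4 subset and at 25.2 and 52.5 CPM against 7.65 and 12.8 CPM in the Cd209a subset, without a test there.

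Antigen presentation genes took a smaller share of the mRNA in cycling DCs. Of 11 MHC class II presentation genes tested, 10 were lower and none higher, with a median log2 difference of -0.53. Cd74, the invariant chain, was at 12242 and 12747 CPM against 17622 and 18333 CPM (-0.58 ± 0.04, edgeR, adjusted p = 4.7e-07). H2-Ab1, an MHC class II beta chain, was at 7644 and 7873 CPM against 10644 and 10805 CPM (-0.52 ± 0.04). H2-Eb1, the other beta chain, was at 5178 and 5335 CPM against 7915 and 8140 CPM (-0.66 ± 0.04). The groups did not overlap for any of these. Ctss, cathepsin S, which trims the invariant chain, was at 954 and 897 CPM against 1485 and 1520 CPM (-0.75 ± 0.08), and Lgmn, an endosomal protease, at 29.3 and 31.8 CPM against 54.7 and 66.8 CPM (-1.04 ± 0.14). H2-DMb1, part of the peptide exchange factor, was the only one not called, at 193 and 187 CPM against 196 and 210 CPM (-0.15 ± 0.07, edgeR, adjusted p = 0.16).

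These differences are of shares. Per cell, cycling DCs held a mean of 207.7 and 206.5 Cd74 UMIs against 173.9 and 182.5 in non-cycling DCs, so that the number of molecules captured was not lower. In the depth window 8 of 11 genes were lower with a median of -0.44, and within the Clec4a4 subset 8 were lower with a median of -0.39. In that subset Cd74 was at 11826 and 12275 CPM against 15553 and 16201 CPM, and in the Cd209a subset at 14431 and 14405 CPM against 21584 and 21703 CPM.

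**Figure D4:**
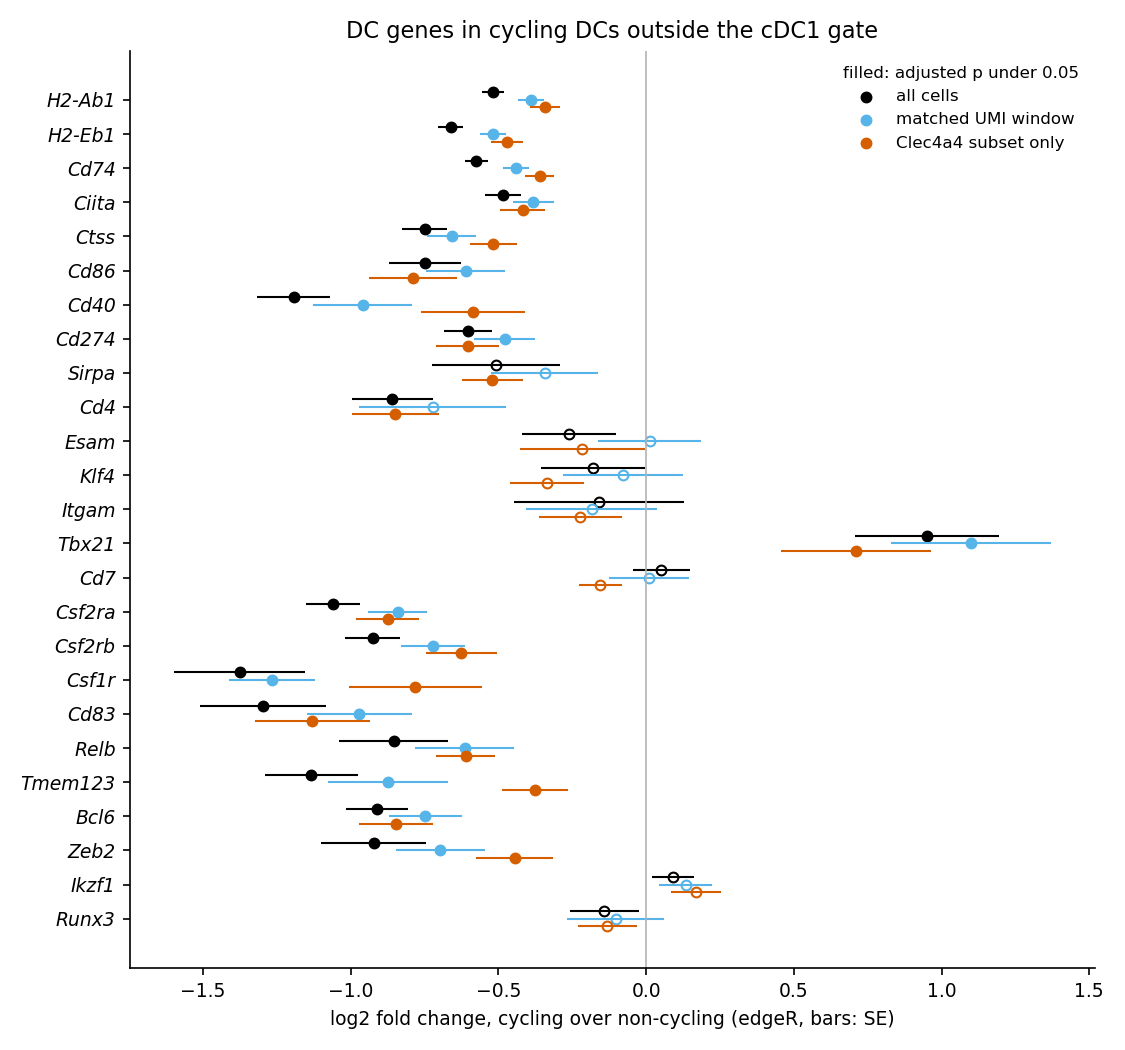
Log2 difference between cycling and non-cycling DCs outside the cDC1 gate, with its standard error, for 25 genes of DC function, in all cells, in cells of a shared depth window and in the Clec4a4 subset alone, with filled symbols for adjusted p under 0.05. MHC class II genes lie below 0 in all 3 settings (Cd74 at -0.58, -0.44 and -0.36), and Tbx21 lies above 0.

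Of 8 costimulatory and checkpoint ligand genes tested, 6 were lower and none higher. Cd86, a ligand of CD28, was at 172 and 224 CPM against 292 and 351 CPM (-0.75 ± 0.12). Cd40, which receives help from T cells, was at 39.2 and 38.1 CPM against 82.7 and 87.9 CPM (-1.19 ± 0.12). Icosl, the ligand of ICOS, was at 300 and 295 CPM against 446 and 443 CPM (-0.63 ± 0.08), and was not called within the Clec4a4 subset (-0.27, edgeR, adjusted p = 0.065). Havcr2, the inhibitory receptor TIM-3, was at 229 and 287 CPM against 350 and 360 CPM (-0.51 ± 0.10). Per cell, the mean Cd86 count was 2.92 and 3.63 UMIs against 2.88 and 3.49.

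Genes of the mature state were lower by more. Of 12 mature DC markers tested, 11 were lower, with a median log2 difference of -1.78, and in the depth window 11 were lower with a median of -1.34. Without mature and Siglech or Ccr9 cells, a setting in which 17.0% of all genes were lower, 6 of 11 were lower, with a median of -1.24. Cd83, which stabilises MHC class II at the surface, was at 319 and 430 CPM against 757 and 1021 CPM (-1.30 ± 0.21, edgeR, adjusted p = 0.00068). Tmem123, a membrane protein of activated DCs, was at 312 and 254 CPM against 527 and 670 CPM (-1.13 ± 0.16). Relb, the noncanonical NF-kB subunit, was at 276 and 239 CPM against 460 and 440 CPM (-0.86 ± 0.18), and was not called by DESeq2 (adjusted p = 0.070). Ccr7, which guides DCs to T cell zones, was at 39.9 and 28.1 CPM against 129 and 220 CPM (-2.41 ± 0.52, edgeR, adjusted p = 0.0044). Without the mature and Siglech or Ccr9 cells its difference was -0.80 (adjusted p = 0.26), and it was not called by DESeq2 (adjusted p = 0.074). Its value was -3.00 without replicate 1 and -1.74 without replicate 2.

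Il12b and Ccl22 were nearly absent from the cycling DCs, and few non-cycling DCs held them. Il12b, the p40 chain of IL-12, held 3 and 1 UMIs against 228 and 314 in non-cycling DCs. Its UMIs lay in 1.29% and 0.599% of cycling and 2.65% and 3.79% of non-cycling cells, and at most 73 and 52 per cell. Ccl22, a chemokine for regulatory T cells, held 7 and 0 UMIs against 139 and 377. Its UMIs lay in 1.29% and 0% of cycling and 2.65% and 3.58% of non-cycling cells, and at most 42 and 111 per cell. Cacnb3, a calcium channel subunit, was at 24.7 and 7.39 CPM against 89.2 and 116 CPM, with a difference of -2.74 ± 0.49 that was -3.97 without replicate 1, -1.89 without replicate 2 and not called without the mature cells (-1.78, edgeR, adjusted p = 0.053). The single marker not called was Fscn1, an actin bundler, at 150 and 71.0 CPM against 242 and 313 CPM (-1.38 ± 0.51, edgeR, adjusted p = 0.056; with a replicate block, which called 35.1% of all genes, -1.33, adjusted p = 0.022).

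The cycling cells that met the mature rule, 20 and 23, carried the mature markers at lower levels than non-cycling mature cells. No test is given because Ccr7 and Fscn1 chose the cells. The cycling mature cells were also deeper, with medians of 14319 and 16307 UMIs against 9769 and 9899.5. Deeper cells pass the fixed cut of 3 UMIs with a lower share of Ccr7 and Fscn1. Fscn1 was at 1115 and 417 CPM in the cycling mature cells, against 1171 and 1232 CPM in non-cycling mature cells. Ccr7 was at 279 and 153 CPM against 624 and 865 CPM, and Cd83 at 755 and 670 CPM against 1315 and 1588 CPM. Their S phase genes summed to 8027 and 6056 CPM and their G2 and M phase genes to 8158 and 12587 CPM. A Ccr7 UMI was present in 13.5% and 13.8% of all cycling DCs and in 17.4% and 22.7% of non-cycling DCs.

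Of 12 genes of DC precursors tested, 6 were lower and none higher. Cd7, a surface glycoprotein of early lymphoid cells and the most abundant gene of the list, was at 702 and 620 CPM against 594 and 636 CPM (0.05 ± 0.10). Plac8, of early myeloid cells, was at 556 and 582 CPM against 549 and 624 CPM, and the groups overlapped for both genes. Lyz2, lysozyme, was at 56.3 and 21.8 CPM against 268 and 304 CPM (-2.93 ± 0.27), with -3.83 without replicate 1, -2.30 without replicate 2 and -1.26 (edgeR, adjusted p = 0.075) within the Clec4a4 subset. Csf1r, the receptor of macrophage growth factor, was at 54.4 and 51.4 CPM against 128 and 138 CPM (-1.38 ± 0.22). Ifitm3, an antiviral membrane protein, was at 406 and 408 CPM against 645 and 638 CPM (-0.71 ± 0.18), and was not called by DESeq2 (adjusted p = 0.080). Ly6a, the stem cell antigen SCA-1, was at 4.94 and 4.43 CPM against 12.6 and 12.5 CPM, and its call was lost when cells with markers of other lineages were left out (-0.54, edgeR, adjusted p = 0.45).

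Of 10 genes of plasmacytoid and transitional DCs tested, 1 was higher and 4 lower. Tcf4, the transcription factor of plasmacytoid DCs, was at 131 and 149 CPM against 195 and 230 CPM (-0.65 ± 0.12), and was not called within the Clec4a4 subset (-0.26, edgeR, adjusted p = 0.18). Runx2, which these cells need to leave the bone marrow, was at 148 and 102 CPM against 150 and 140 CPM. Siglech held 3 and 10 UMIs against 330 and 208, and Cd300c 0 and 5 UMIs against 135 and 155. The gene that was higher, Cox6a2, had 49 of its 51 UMIs of replicate 1 in 1 cell, and its log2 difference fell from 4.25 to 0.72 without that replicate. After leaving out cells beyond 3 median absolute deviations in depth, genes or mitochondrial share it was 0.85 (edgeR, adjusted p = 0.60).

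Of 15 transcription factors of DC development, 10 were lower and none higher. Ikzf1, which encodes Ikaros, was at 665 and 696 CPM against 653 and 581 CPM (0.09 ± 0.07). Bcl11a was at 482 and 510 CPM against 528 and 503 CPM. Spi1, which encodes PU.1, was at 490 and 477 CPM against 607 and 597 CPM (-0.37 ± 0.07). Zeb2 and Bcl6, named here after their values were seen, act in opposite DC fates, and both were lower. Zeb2 was at 176 and 142 CPM against 285 and 298 CPM (-0.92 ± 0.18) and Bcl6 at 120 and 112 CPM against 197 and 224 CPM (-0.91 ± 0.10). Nfil3, a factor of cDC1 commitment, was at 6.08 and 4.81 CPM against 11.4 and 23.2 CPM, with a difference of -2.25 without replicate 1 and -0.92 without replicate 2. Ikzf3, which encodes Aiolos, was at 3.04 and 7.39 CPM against 14.6 and 14.3 CPM, with -0.97 without replicate 1 and -2.20 without replicate 2.

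Of 9 growth factor receptor genes, 7 were lower and none higher, with a median log2 difference of -0.88. Csf2ra, the GM-CSF receptor alpha chain, was at 261 and 211 CPM against 493 and 459 CPM (-1.06 ± 0.09, edgeR, adjusted p = 4.4e-06). Csf2rb, the shared signalling chain of the GM-CSF, IL-3 and IL-5 receptors, was at 179 and 164 CPM against 303 and 326 CPM (-0.93 ± 0.09). Its near-identical copy Csf2rb2, with which it can share reads, was at 18.3 and 11.8 CPM against 56.1 and 61.0 CPM (-2.01 ± 0.17). Csf3r, the receptor of G-CSF, was at 3.42 and 5.54 CPM against 25.6 and 23.1 CPM, and was not called within the Clec4a4 subset (-1.50, edgeR, adjusted p = 0.064). Per cell, Csf2ra was at 4.43 and 3.43 UMIs against 4.86 and 4.57, and Flt3, which chose the cells, at 6.19 and 5.89 UMIs against 4.89 and 5.33.

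Of 12 interferon response genes, 8 were lower and none higher, but only 3 were lower in the depth window. Oasl2, an antiviral synthetase-like protein, was at 25.5 and 34.7 CPM against 74.4 and 74.9 CPM (-1.36 ± 0.18). Mx1 was at 23.95 and 11.1 CPM against 40.0 and 34.1 CPM, with -1.64 without replicate 1 and -0.78 without replicate 2.

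Of 14 cDC1 genes that the gate did not use, 6 were lower and none higher. They travel with the gate, whose cut of 5 UMIs admits a larger share in shallower cells, and its part was not tested. Id2, which restrains E proteins in DCs, was at 477 and 420 CPM against 377 and 404 CPM (0.15 ± 0.07), and passed the threshold in 5 alternatives. Wdfy4, needed for cross-presentation, was at 652 and 580 CPM against 786 and 689 CPM (-0.31, edgeR, adjusted p = 0.020), and was not called in the depth window or with the cycle genes left out of the scaling. Irf8, the cDC1 and plasmacytoid DC factor, was at 17.5 and 19.2 CPM against 47.9 and 43.8 CPM (-1.37 ± 0.12), but within the Clec4a4 subset its difference was -0.15 (edgeR, adjusted p = 0.81). Cd8a was at 6.46 and 8.50 CPM against 34.0 and 65.1 CPM (-2.76 ± 0.39), and turned to 0.19 within that subset.

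Among genes in no list, the largest lower values by the naming rule were those of Apol7c, an apolipoprotein L of DCs, at 53.6 and 25.1 CPM against 270 and 331 CPM (-2.99 ± 0.23). Its difference was -3.75 without replicate 1, -2.38 without replicate 2 and -0.87 (edgeR, adjusted p = 0.13) within the Clec4a4 subset. H2-M2, a nonclassical MHC class I gene, was at 19.4 and 12.9 CPM against 105 and 123 CPM, and the chemokine Cxcl16 at 18.6 and 9.98 CPM against 71.1 and 101 CPM. Sox4 was at 23.6 and 35.5 CPM against 104 and 143 CPM, Slfn5 at 59.7 and 41.0 CPM against 238 and 203 CPM, and Pfkfb3, a regulator of glycolysis, at 49.8 and 42.5 CPM against 176 and 188 CPM. Arl5c, Tmcc3, Slco5a1 and Zc3h12c followed, with log2 differences of -1.98, -2.15, -2.08 and -2.01.

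Markers of other cell types were mostly at low summed levels in the cycling DCs and are given because cells with such markers were not removed. Such cells held at least 5 UMIs of any 1 list, with the monocyte list and the haemoglobin genes set aside. They were 65 of 155 and 61 of 167 cycling DCs, against 315 of 1096 and 278 of 951 non-cycling DCs. The deeper cycling cells reach 5 UMIs more easily. Macrophage genes summed to 147 and 155 CPM against 223 and 246 CPM in non-cycling DCs, with 3 of 10 lower. Monocyte genes summed to 264 and 264 CPM against 315 and 330 CPM, with 1 of 8 lower and F13a1 and Chil3 at 0. Neutrophil genes were at 3.42 and 1.85 CPM against 23.2 and 59.9 CPM (1 of 5 lower). B cell genes were at 216 and 162 CPM against 227 and 235 CPM (1 of 6 lower), most of it Ighm, and plasma cell genes at 8.37 and 6.28 CPM against 15.4 and 20.9 CPM (1 of 2 tested lower), with Mzb1, Sdc1 and Tnfrsf17 at 0. T cell genes were at 27 and 28.5 CPM against 28.8 and 28.7 CPM (1 of 4 lower, Cd3g at 0), and NK cell genes at 34.2 and 37.7 CPM against 30.5 and 33.1 CPM, with Gzmb at 0. Basophil and mast cell genes were at 0 in cycling DCs.

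Like the NK cell genes, but by more, erythroid genes had a higher summed level in cycling DCs. They were at 54.8 and 253 CPM against 38.7 and 31.2 CPM, with 2 of 6 higher. In replicate 2 a single cell held 267 of the 268 UMIs of Car1 and 173 of the 241 UMIs of Car2, carbonic anhydrases of red cell precursors. The part of these cells in the results was not tested beyond leaving out the cells with such markers, which gave 3057 called genes. Scrublet called 2 and 0 of the cycling DCs as doublets, and mitochondrial genes made up a median of 4.90% and 4.94% of UMIs, against 5.46% and 5.30% in non-cycling DCs.

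The nearest population is the cycling cDC1-gated DCs, 127 and 131 cells with 5 or more UMIs of the 4 cDC1 genes and otherwise the same rule. They were deeper, with medians of 28735 and 28820 UMIs per cell. Of the 12487 genes, 4366 (35.0%) differed between the 2 cycling groups, 2094 higher (16.8%) and 2272 lower (18.2%) in those outside the gate, with a median log2 difference of 0.00. The share of called genes that were higher was 48.0%, and 61.7% when libraries were scaled by their total UMIs, which shifted the median by 0.13.

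Many genes of the division program took a slightly larger share of the mRNA outside the gate. The same cut of 6 UMIs of Top2a and Mki67 chose both groups. In the deeper cDC1-gated cells this cut admits a smaller share of the gene pair. Cycle genes travel with the pair, so their counts are described and not read as support, and the part of the cut in them was not tested. Of the G2 and M phase genes, 34 of 52 were higher and none lower, with a median log2 difference of 0.48, and of the S phase genes 13 of 44 were higher and 1 lower, with a median of 0.20. Without cells with markers of other lineages, where 22.6% of all genes were called, 18 of the G2 and M phase genes were higher with a median of 0.51. Kif11, a spindle motor, was at 365 and 418 CPM outside the gate and 200 and 185 CPM inside it (0.89 ± 0.10), and Cenpf, of the kinetochore, at 320 and 382 CPM against 187 and 165 CPM (0.86 ± 0.12). Chromatin and tubulin genes gave 8 of 15 higher, and cyclins and their partners 12 of 22 higher and 1 lower. The D cyclins differed by more. Ccnd1 was at 315 and 383 CPM in cycling cDC1-gated DCs (1.51 ± 0.08), and Ccnd2 at 3.97 and 12.5 CPM (2.65 ± 0.29, edgeR, adjusted p = 3.3e-05). Ccnd3 was at 236 and 250 CPM in cycling cDC1-gated DCs and did not pass the test. For the inhibitors, 6 of 15 were higher and 2 lower.

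Growth genes lay the other way, with 11 of 15 lower outside the gate and 2 higher, though only 3 were lower and 2 higher within the depth window, where 23.6% of all genes were called, 14.6% higher and 9.03% lower. Npm1 was at 1074 and 1045 CPM in the cycling cDC1-gated DCs (-0.48 ± 0.06). Ldha, lactate dehydrogenase, was at 141 and 153 CPM outside against 235 and 239 CPM inside (-0.83 ± 0.09). The exceptions were Slc2a3, at 12.4 and 16.4 CPM inside the gate (2.33 ± 0.17), and the transferrin receptor Tfrc, at 158 and 162 CPM outside and 57.2 and 73.8 CPM inside (1.15 ± 0.14). Nucleotide synthesis gave 3 of 16 lower and none higher.

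Genes of DC identity differed between the cycling groups. Of 14 cDC1 genes, all were lower outside the gate, with a median log2 difference of -5.16, which follows from the gate. Irf8 was at 1769 and 1717 CPM in cycling cDC1-gated DCs. Of 17 cDC2 markers, 13 were higher and 1 lower, with a median of 2.65. Sirpa was at 12.97 and 36.3 CPM inside the gate (3.04 ± 0.28), Klf4 at 31.5 and 63.1 CPM (2.18 ± 0.21), and Tbx21 at 2.65 and 3.39 CPM (3.51 ± 0.34). Cd7 was at 47.9 and 61.8 CPM inside the gate (3.45 ± 0.12). Interferon response genes gave 7 of 12 higher and 2 lower, with a median of 1.11. MHC class II genes gave 5 of 11 higher and 6 lower, with Cd74 at 14667 and 14929 CPM inside the gate (-0.38 ± 0.04). Costimulatory genes gave 4 of 8 higher and 2 lower, transcription factors 8 of 15 higher and 1 lower, mature markers 4 of 12 higher and 1 lower, precursor genes 5 of 12 higher and 4 lower, plasmacytoid and transitional genes 4 of 10 higher and 2 lower, and growth factor receptors 1 of 9 higher and 2 lower.

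In no list, Gpr141b was the most divergent gene by the naming rule, at 3.04 and 2.59 CPM outside the gate and 630 and 555 CPM inside (-7.84 ± 0.15). Cxcl9, Pdia5, Serpinb8 and Pianp followed, with log2 differences of -6.31, -6.19, -5.91 and -5.74. Ptger3, a prostaglandin E2 receptor, was at 50.9 and 53.6 CPM outside against 1.32 and 2.87 CPM inside (4.49 ± 0.33), and Ddx58, the RNA sensor RIG-I, at 70.0 and 67.3 CPM against 4.50 and 3.65 CPM (3.93 ± 0.26). Gm47922, Scn3a and AC140186.1 were the others, at 4.57, 4.37 and 3.96.

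The difference between cycling and non-cycling cells was itself compared between the DCs outside the gate and the cDC1-gated DCs. Of 12487 genes, 92 (0.737%) had a different size of effect, 34 with a larger value outside the gate (0.272%) and 58 with a smaller one (0.464%). The share of called genes with a larger value was 37.0%, and 71.8% of 117 genes with the cycle genes left out of the scaling, which shifted the median by 0.15. Among the lists, 4 of the 52 G2 and M phase genes, 1 of the chromatin genes and 1 of the costimulatory genes had a larger value outside the gate, the S phase and precursor genes gave 1 in each direction, and 2 of the cDC1 genes and 1 of the cDC2 markers had a smaller one. No gene of the MHC class II, mature, transcription factor or growth factor receptor lists passed, and Cd74 was at 14667 and 14929 CPM in cycling and 19653 and 20138 CPM in non-cycling cells inside the gate, with a difference of -0.14 ± 0.05 between the effects (edgeR, adjusted p = 0.30).

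Ift80, a protein of intraflagellar transport, had the largest value by the naming rule among the genes in no list with a larger effect outside the gate. It was at 63.1 and 67.3 CPM against 13.4 and 10.5 CPM outside, and at 15.1 and 18.3 CPM against 11.1 and 10.05 CPM inside (difference of effects 1.75 ± 0.25, edgeR, adjusted p = 0.011). Bard1, the partner of BRCA1, had the smaller effect outside, at 118 and 102 CPM against 11.7 and 7.498 CPM, compared with 63.8 and 51.4 CPM against 1.14 and 1.07 CPM inside (-2.21 ± 0.37, edgeR, adjusted p = 0.023). Irf8 was lower in cycling DCs outside the gate, while inside it the gene was at 1769 and 1717 CPM in cycling and 1510 and 1664 CPM in non-cycling cells (-1.49 ± 0.14, edgeR, adjusted p = 0.0010).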

How the data were processed

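Single-cell transcriptomes of 2 samples of splenic CD11c+ cells were analysed. The authors deposited UMI count tables made with the BD Rhapsody WTA Analysis Pipeline 1.12.1 on GRCm38 with GENCODE vM19, without normalization, and their processing notes also name R 4.2.3 and Seurat 4.3.0.1. Intronic reads were counted. The tables held 27032 genes and were used as deposited, with no doublet removed (Scrublet in scanpy 1.11.5 called 62 cells, 0.970%). The members and gene lists were chosen with earlier results of these data known.

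Cells were gated by UMIs, and UMIs were summed per sample over cycling and non-cycling DCs outside and inside the cDC1 gate, giving 8 sums. After leaving out the 11 gate genes, these were fitted together with edgeR 4.0.16 (TMM factors, filterByExpr, quasi-likelihood test with Benjamini-Hochberg adjustment over all genes tested, threshold 0.05) in R 4.3.3. CPM is UMIs per 1000000 of the group's sum. The effect of depth on shares was checked by thinning each cell to 5000 UMIs. Tables were made with Python 3.11.15.

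The genes named were the gate genes, 2 to 6 members per list with the highest CPM or the largest called fold, and, outside the lists, the 10 genes (5 in each comparison with cDC1-gated DCs) with the largest fold in each direction that were past the threshold, the same way in both samples and at 50 CPM or more in the higher group. On simulated counts for 12487 genes in the cycling comparison, 161 of 200 genes changed 4-fold were recovered, with 14 false calls. Of 200 genes changed 2-fold, 119 were recovered, with 7 false calls. The simulation changed fewer genes than were called in the data. Alternatives were DESeq2 1.42.0, other scalings and filters, a replicate block, a threshold of 12 UMIs, a depth window and subsets of cells. The groups of 1 replicate come from the same sample, which pairs them by construction, and the correlation of their deviations from the group means ran from 0.0412 to 0.221. Replicates of a group differed beyond sampling noise (chi-square per degree of freedom 2.76 to 4.67). Other samples of the run are not analysed here, and the values of some list members are not reported here.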

Additional observations from a re-analysis of the deposited data

Results flagged for a closer look

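Each result here was marked by a test of the difference itself, namely whether the log2 difference between cycling and non-cycling cells was larger or smaller outside the cDC1 gate than inside it (edgeR's quasi-likelihood test, adjusted p under 0.05). Of the cycle genes, the effect was larger outside the gate by 1.61 for Hells, 2.42 for Ube2c, 1.28 for Cks1b, 1.03 for Kif23, 3.16 for Gas2l3 and 1.24 for H2afx, and smaller by a difference of -0.91 for Mcm7. Gas2l3, which links actin and microtubules, was at 46.4 and 59.9 CPM in cycling against 2.77 and 2.85 CPM in non-cycling cells outside the gate, and at 61.7 and 48.8 CPM against 25.9 and 27.9 CPM inside it.

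Of the DC genes, the difference of effects was 0.66 for Cd274, -1.21 for Clec12a, -1.49 for Irf8, -2.83 for Cd8a, 0.82 for Cd7 and -1.43 for Ccr2. Within the Clec4a4 subset, the cycling effect outside the gate was 0.48 for Clec12a, -0.15 for Irf8, 0.19 for Cd8a and 0.84 for Ccr2. Irf8 and Cd8a are cDC1 genes, which are not independent of the gate. Gzma, a granule protease of NK and T cells, had a difference of 5.07, and its 23 and 50 UMIs in cycling cells outside the gate lay in 1 cell of replicate 1 and 2 cells of replicate 2.

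Among genes in no list the differences of effects were 1.75 for Ift80, 1.40 for Zfp367, 1.38 for Plk4, 1.36 for Apoe and 1.35 for Pmf1, and -1.99 for Apol7c, -1.63 for Cxcl16, -1.23 for Zc3h12c, -2.21 for Bard1 and -1.20 for AW112010.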

How the results depend on the processing

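The cycling comparison called 4147 genes and between 2834 and 4624 under every alternative but the Clec4a4 subset alone, with 2498. The comparison of the cycling groups called 4366, but 2727 in the depth window and 2503 without cells with markers of other cell types. The comparison of effects, with 92 genes, was the least stable, at 534 without a count filter, 188 with the threshold of 12 UMIs, 34 after the 3 median absolute deviations filter, 31 in the depth window, 61 without mature and Siglech or Ccr9 cells and 20 without cells with other markers. With the replicate block, which uses the pairing of groups within a sample, it was 170, and the other comparisons gave 4377 and 4495.

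The share of cycling cells was 7.93% with the threshold of 12 UMIs, and 9.60% to 11.7% with either replicate alone. By subset, with that threshold and after thinning, the mean share was 11.8% and 12.3% in the Clec4a4 subset (main 15.4%, single replicates 13.5% to 17.2%), 3.42% and 3.80% in the Cd209a subset (4.97%, 4.62% to 5.32%), and 4.67% and 5.95% in mature cells (7.42%, 7.37% to 7.46%, and 7.27% after the deviations filter). The share was 15.5% after thinning in the rest (12.2%, 9.97% to 14.3%), and 0% to 15.2% in single replicates for Siglech or Ccr9 cells (7.58%). The S phase median was 50.0 UMIs per 10000, 52.9 unthinned and 49.0 to 51.0 in single replicates, and the G2 and M phase median was 126 (122 to 130).

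Directions turned within the Clec4a4 subset for Cdkn1a (2.07), Tnfsf9 (1.69), Clec12a (0.48), Cd8a (0.19), Cx3cr1 (1.38), Marcksl1 (0.26) and Ccr2 (0.84). Between the cycling groups they turned for Blm (-0.15), Ikzf3 (-0.60) and Ms4a1 (0.59) without cells with other markers, Car1 (-1.14 without replicate 2, 7.39 without replicate 1) and Slfn5 (0.0025) without mature cells. For the comparison of effects they turned for Cd274 (-0.17) without cells with other markers and Cd7 (-0.036) in the depth window. Their cause was not tested. Depth limits genes with few UMIs and cells near the threshold of 6 UMIs. With 1 replicate left out a fit gives values with no test.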
